A study of Homo sapiens with 12 samples.

Results

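The interferon regulatory factor (IRF) genes *IRF1*, *IRF2*, *IRF3*, *IRF4*, *IRF5*, *IRF7*, *IRF8* and *IRF9*, with *IRF2BP2*, were followed in TNF-α treated HL-60/S4 cells. The 9 rows were taken from the deposited gene count table by matching each Ensembl identifier to its symbol, and they are 9 of the 58288 genes in that table. All 9 had enough counts to be tested in every comparison. The rule used the symbols alone.

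IRFs are transcription factors that share a DNA-binding domain and recognise GAAA repeats in the promoters of interferon and interferon-stimulated genes. Some are held in the cytoplasm until a sensor pathway has them phosphorylated (IRF3, IRF5, IRF7), some act mainly through how much of the protein is made (IRF1, IRF4, IRF8), and IRF9 acts as the DNA-binding subunit of a complex formed after interferon signalling. In myeloid cells IRF8 is best known for directing progenitors towards monocytes and dendritic cells and away from granulocytes.

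HL-60/S4 is a fast-differentiating subline of HL-60, a promyelocytic leukemia line, and all groups came from this single line. The 12 RNA-seq libraries formed 4 groups of 3, and each library was made from its own flask. Promyelocytes were undifferentiated cells, and granulocytes had received 1 µM all-trans retinoic acid (ATRA) for 4 days. Both forms were kept for 2 h in calcium-supplemented medium with either 16 ng/mL TNF-α or the same volume of water as vehicle. The promyelocyte and granulocyte experiments were carried out apart, so cell type and experiment cannot be told apart, and levels are compared between cell types without a test. P-values measure the spread between flasks of this line.

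Library totals ran from 22829189 to 31895061 read pairs assigned to genes, with a median of 28233190. Levels are given as normalized read counts (CPM), that is counts relative to the library total after TMM scaling of all 12 libraries. At these depths 3 counts, used here as the floor, correspond to 0.0941 to 0.131 CPM, and these floors cover counting error only. The granulocytic marker *ITGAM* stood at 6.40 CPM in vehicle-treated promyelocytes and 297 CPM in vehicle-treated granulocytes, and *CD38* at 8.50 and 1164 CPM. *MPO*, of azurophil granules, stood at 6422 and 2019 CPM. Of 5 monocyte or macrophage markers, whose summed level was 3.86 to 4.73 CPM in vehicle-treated promyelocytes and 49.1 to 51.2 CPM in vehicle-treated granulocytes, *CSF1R* held nearly all, while *CD14* did not exceed 12 counts in any library. The TNF-α response genes *NFKBIA*, *TNFAIP3*, *BIRC3*, *ICAM1*, *CXCL8* and *TNF* were higher after TNF-α in both cell types, 6 of 6 in each, with median log2 fold changes of 3.77 and 5.0. In bulk RNA, a change in the number of cells that express a gene and a change in RNA per cell cannot be told apart.

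The starts of these genes were examined for the binding sequences of factors that act downstream of TNF-α and interferon receptors. RefSeq promoter windows on GRCh38.p14, each of 250 bases before a transcript start, were found for 6 of the 9 genes, and 11 windows in all were searched on both strands. *IRF2*, *IRF3* and *IRF7* had no window. The 3 sequences searched were the NF-κB consensus, the gamma-activated sequence (GAS) TTCNNNGAA, and the core of the interferon-stimulated response element that IRFs bind, GAAA repeated after any 2 bases. The *IRF1* window (chr5:132490774-132491023, minus strand) and the *IRF9* window (chr14:24161015-24161264, plus strand) were the 2 with a match. They are shown with matches in capitals, together with the *IRF8* window nearest the annotated gene start (chr16:85902580-85902829, plus strand), because *IRF8* gave the largest TNF-α response of the 9 genes. This *IRF8* window precedes a transcript start 4027 bases inside the gene as annotated in the count table. The bases before the annotated start of *IRF8* were therefore not searched.
IRF1 promoter window: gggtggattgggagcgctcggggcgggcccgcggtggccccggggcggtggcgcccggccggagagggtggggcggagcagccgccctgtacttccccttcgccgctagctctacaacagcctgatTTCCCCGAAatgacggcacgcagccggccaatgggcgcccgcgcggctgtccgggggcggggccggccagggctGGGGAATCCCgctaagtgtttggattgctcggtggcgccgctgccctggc
IRF9 promoter window: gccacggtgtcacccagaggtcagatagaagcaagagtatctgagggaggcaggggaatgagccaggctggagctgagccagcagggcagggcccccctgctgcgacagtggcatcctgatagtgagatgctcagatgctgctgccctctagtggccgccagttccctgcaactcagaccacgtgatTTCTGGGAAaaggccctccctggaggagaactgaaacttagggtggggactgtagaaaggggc
IRF8 promoter window: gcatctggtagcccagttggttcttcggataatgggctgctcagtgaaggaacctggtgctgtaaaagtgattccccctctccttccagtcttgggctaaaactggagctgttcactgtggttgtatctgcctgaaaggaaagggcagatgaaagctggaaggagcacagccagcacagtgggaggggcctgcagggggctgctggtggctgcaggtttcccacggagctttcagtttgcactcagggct
In *IRF1* a GAS match lies at positions -124 to -116 and an NF-κB match at -50 to -41, where -1 is the base just before the transcript start. In *IRF9* a GAS match lies at -63 to -55. Among 35116 windows of this length 5.21% held an NF-κB match, 6.57% a GAS match and 3.02% the response element core. No other window of the 9 genes held any of the 3 sequences, which says only that these letters are not in those 250 bases. The matches in *IRF1* and *IRF9* fit the searched sequence on either strand.

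*IRF2BP2* was the most abundant of the 9 transcripts in all 4 groups and *IRF4* or *IRF8* the least. Levels of different genes are compared as CPM per kilobase of exon length. This length joins all annotated exons of a gene (7799 bases for *IRF1*, 3116 for *IRF2*), so the order depends on the annotation. In CPM *IRF1* exceeded *IRF2* in vehicle-treated promyelocytes (29.8 against 16.2), the reverse of their order per kilobase. *IRF2BP2*, a zinc finger corepressor that binds IRF2 and is not itself an IRF, averaged 51.9 ± 1.44 CPM per kilobase (SD, n = 3) in vehicle-treated promyelocytes and 63.1 ± 2.86 in vehicle-treated granulocytes. In vehicle-treated promyelocytes it was followed by *IRF3* (11.5 CPM per kilobase), *IRF2* (5.18), *IRF1* (3.83), *IRF5* (0.879), *IRF7* (0.857), *IRF9* (0.490), *IRF8* (0.416) and *IRF4* (0.0588). The ranges of the 3 libraries overlapped between *IRF5* and *IRF7* and between *IRF9* and *IRF8*, so these neighbours have no order beyond their spread. In vehicle-treated granulocytes *IRF1* came second at 21.4 CPM per kilobase, ahead of *IRF3* (14.9), *IRF2* (12.4), *IRF7* (4.04), *IRF9* (2.09), *IRF5* (1.57), *IRF4* (0.0888) and *IRF8* (0.0640). There no neighbouring ranges overlapped. The level of *IRF9* in every group was divided by all 3794 exon bases, though read pairs on 1838 of them were not counted. Its level is therefore too low by an unknown amount, and its rank and overlap with neighbours are not settled.

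After TNF-α *IRF8* stood higher and *IRF5* lower in the order of both cell types. In TNF-α treated promyelocytes the lower ranks were *IRF7* (1.16 CPM per kilobase), *IRF8* (0.688), *IRF9* (0.648), *IRF5* (0.465) and *IRF4* (0.0753), with overlap only between *IRF8* and *IRF9*. In TNF-α treated granulocytes *IRF2* (15) stood just above *IRF3* (14.5) without overlap, and *IRF9* (2.15), *IRF8* (1.99), *IRF5* (0.359) and *IRF4* (0.0713) followed *IRF7* (4.18). The only overlapping neighbours in that group were *IRF9* and *IRF8*. The limit on the level of *IRF9* holds for the orders of both cell types.

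**Figure D1:**
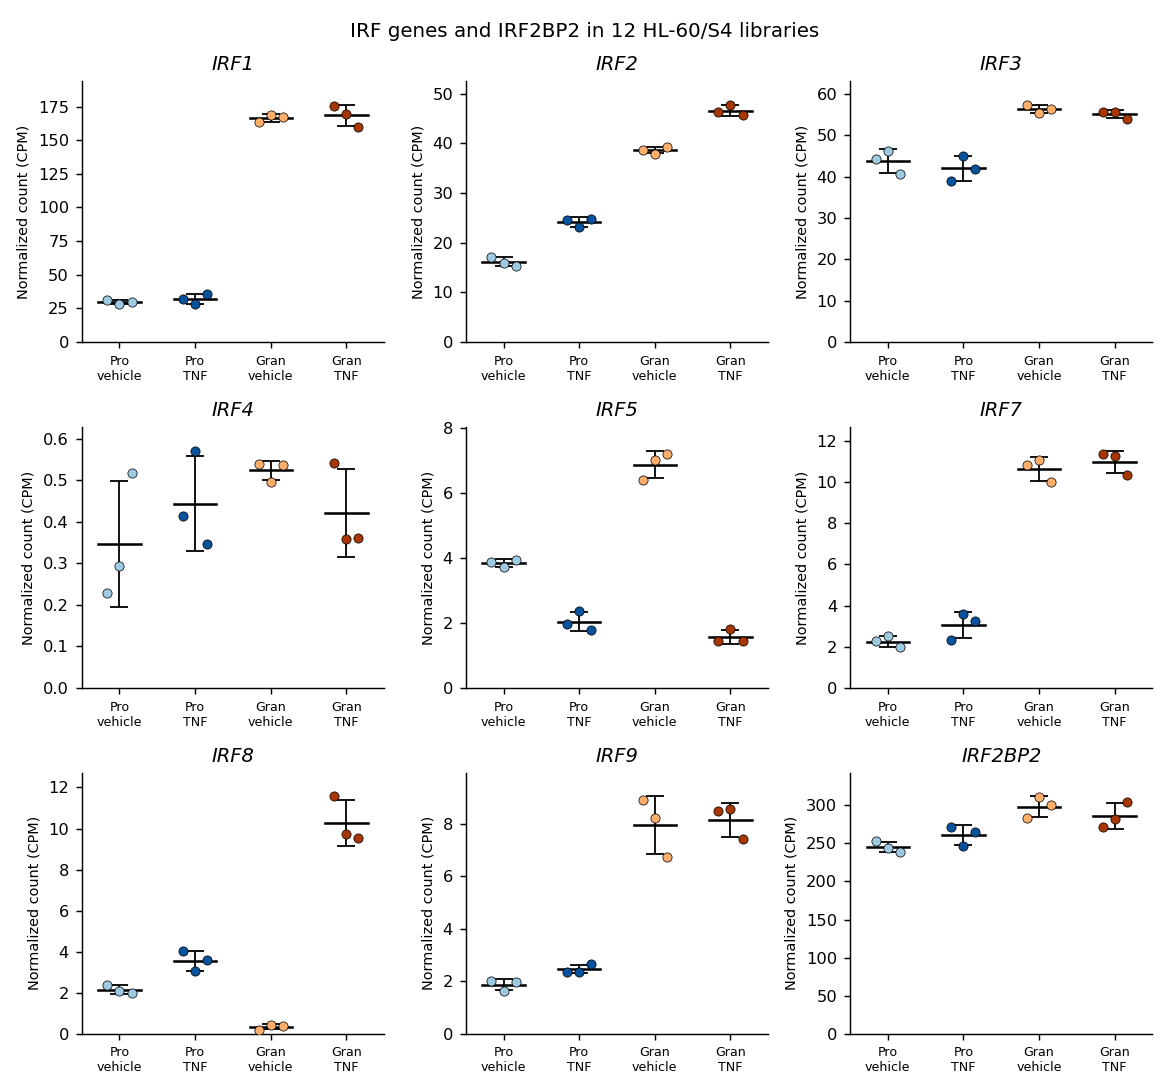
Normalized counts (CPM, y axis, linear from 0, a separate scale for each gene) of the 9 genes in every library of the 4 groups (x axis). Points are libraries, bars the mean and whiskers the SD of 3 libraries. *IRF8* rises from 0.330 to 10.3 CPM in granulocytes, *IRF5* falls in both cell types, and the *IRF1* points of TNF-α and vehicle lie at the same height within each cell type.

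Between the cell types, 8 of the 9 genes had vehicle levels that did not overlap, and 7 of these 8 were higher in granulocytes. The same shares were not computed over all genes, so these counts cannot show whether the IRFs differ from other genes in this. *IRF1* averaged 29.8 ± 1.76 CPM in vehicle-treated promyelocytes and 167 ± 2.70 CPM in vehicle-treated granulocytes (SD, n = 3), a ratio of 5.58. *IRF7* was 4.72 times, *IRF9* 4.27 times, *IRF2* 2.39 times, *IRF5* 1.79 times, *IRF3* 1.29 times and *IRF2BP2* 1.22 times as high in granulocytes. *IRF8* went the other way, with 2.15 ± 0.213 CPM in promyelocytes and 0.330 ± 0.123 CPM in granulocytes, 6.50 times as high in promyelocytes. *IRF4* overlapped.

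The 8 IRF transcripts, without *IRF2BP2*, summed to 23.3 ± 0.993 CPM per kilobase in vehicle-treated promyelocytes and 56.5 ± 0.182 in vehicle-treated granulocytes (SD, n = 3). *IRF3* made up 49.6% ± 1.83 of this sum in vehicle-treated promyelocytes and 26.4% ± 0.455 in vehicle-treated granulocytes. *IRF1* made up 16.5% ± 1.14 and 37.8% ± 0.631, and *IRF2* 22.3% ± 0.596 and 21.9% ± 0.425. After TNF-α the share of *IRF2* was 29.9% ± 1.57 in promyelocytes and 25% ± 0.678 in granulocytes, that of *IRF8* 2.65% ± 0.429 and 3.33% ± 0.291, and that of *IRF5* 1.79% ± 0.260 and 0.601% ± 0.0779. Shares of one sum move against each other, so a larger share of *IRF2* lowers the shares of the rest. The shares also rest on the exon lengths, so those of *IRF1* and *IRF2* depend on the annotation.

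**Figure D2:**
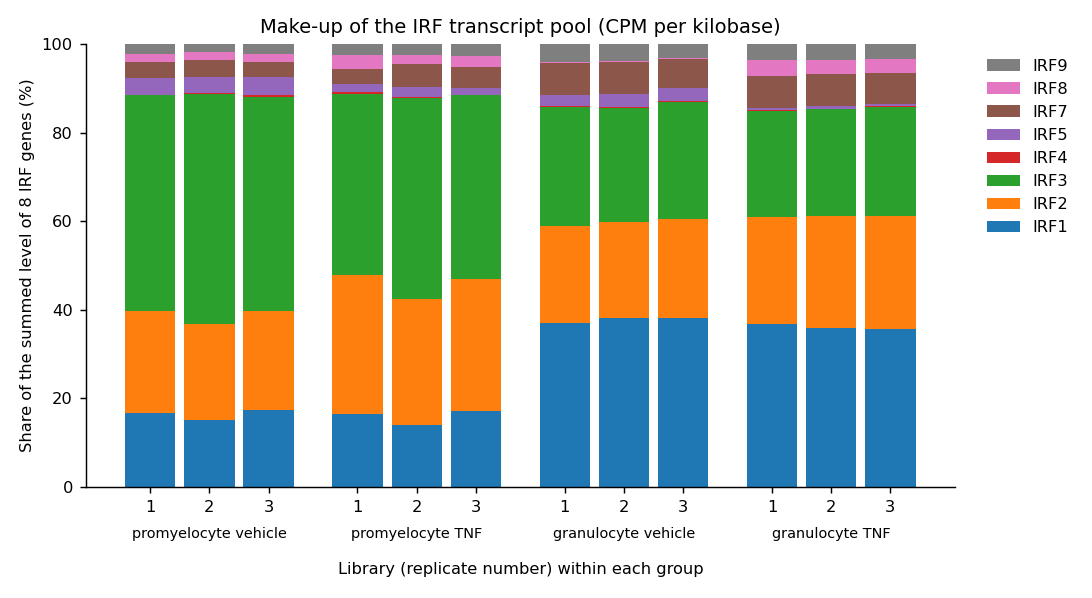
Share of the summed level of the 8 IRF genes (%, y axis) held by each gene in each of the 12 libraries (x axis, replicate number within group), from CPM per kilobase. *IRF3* is the largest block in promyelocytes (49.6% with vehicle) and *IRF1* in granulocytes (37.8% with vehicle), and the *IRF8* block, 0.113% in vehicle-treated granulocytes, is visible after TNF-α.

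The response to TNF-α was tested in each cell type with edgeR's quasi-likelihood test on all genes. In promyelocytes 3 of the 9 genes passed an adjusted p of 0.05, *IRF2* and *IRF8* upwards and *IRF5* downwards. Of all 16250 genes tested there, 14.8% passed, 8.15% upwards and 6.65% downwards. The CPM ranges of the groups did not overlap for 4 of the 9 genes (*IRF2*, *IRF5*, *IRF8* and *IRF9*) against 30.9% of all genes. In granulocytes 3 of the 9 again passed, *IRF8* and *IRF2* upwards and *IRF5* downwards, where 49.2% of 16944 genes passed, 24.4% upwards and 24.8% downwards. There the groups did not overlap for 3 of the 9 (*IRF2*, *IRF5* and *IRF8*) against 55.1% of all genes. The median log2 fold change of the 9 genes was 0.37 in promyelocytes and 0.00 in granulocytes, beside -0.01 and -0.00 for all genes tested. The promyelocyte median is the value of *IRF4* (SE 0.454), which held only 7 to 16 counts a library there.

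The difference between the responses, granulocytes minus promyelocytes, was tested as an interaction over all 12 libraries. It passed for 3 of the 9 genes, *IRF8*, *IRF5* and *IRF2*, where 24% of 18124 genes passed. With an offset that took out the dependence of counts on GC content and length in each library, 4 of 9 genes passed in promyelocytes (16% of all genes), 4 of 9 in granulocytes (50.8%) and 6 of 9 for the difference (24.2%). The added genes were *IRF7* in promyelocytes, *IRF3* in granulocytes, and *IRF1*, *IRF7* and *IRF2BP2* for the difference. *IRF2*, *IRF5* and *IRF8* passed in all 3 comparisons with and without this correction.

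**Figure D3:**
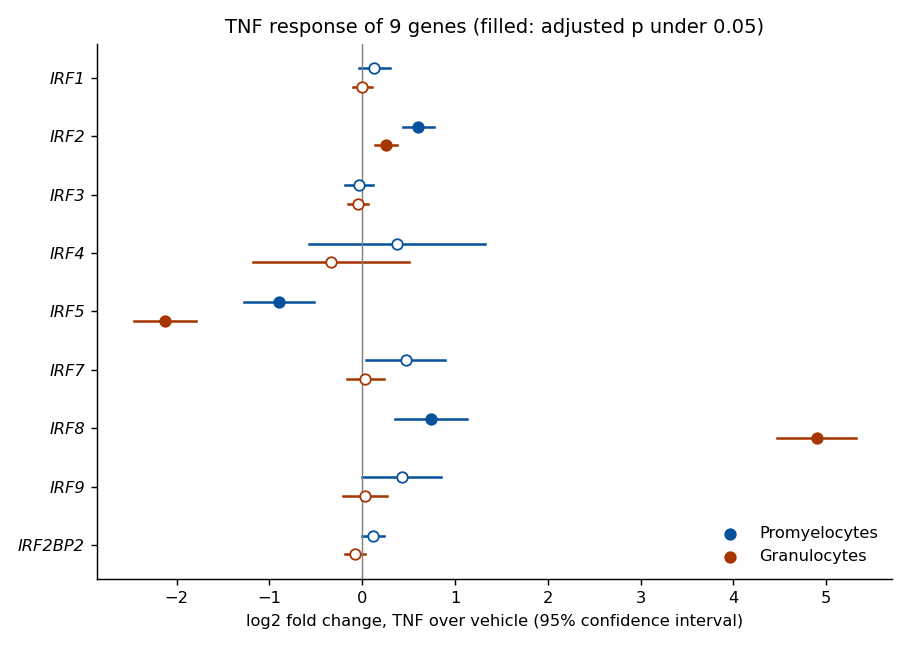
Log2 fold change of TNF-α over vehicle (x axis) for each of the 9 genes (y axis) in promyelocytes and granulocytes, with 95% confidence intervals as lines. Filled points passed an adjusted p of 0.05: *IRF8* (0.75 and 4.90), *IRF5* (-0.90 and -2.13) and *IRF2* (0.61 and 0.26), and every other interval but those of *IRF7* and *IRF9* in promyelocytes includes 0.

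*IRF8*, the myeloid lineage factor that pairs with PU.1 on DNA, rose in both cell types and rose most in granulocytes. Vehicle-treated granulocytes held 5, 13 and 11 counts of *IRF8*, and TNF-α treated granulocytes 256, 272 and 211. As levels these were 0.192, 0.430 and 0.369 CPM with vehicle and 11.6, 9.74 and 9.54 CPM with TNF-α. Every TNF-α library lay far above every vehicle library. The log2 fold change was 4.90 (SE 0.211, edgeR adjusted p = 3.08e-21), a 29.8-fold rise, which placed *IRF8* 67th from the top of 16944 genes. The vehicle counts are few, so the size of the fold rests on 5 to 13 read pairs a library.

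In promyelocytes *IRF8* gave 73, 57 and 57 counts with vehicle and 107, 85 and 114 with TNF-α. The levels were 2.38, 2.10 and 1.97 CPM against 4.02, 3.04 and 3.59 CPM, without overlap. The log2 fold change was 0.75 (SE 0.186, edgeR adjusted p = 0.00871). The granulocyte response exceeded the promyelocyte response by 4.19 (SE 0.301) on the log2 scale (interaction, edgeR adjusted p = 4.27e-11), the 26th highest difference of 18124 genes. With TNF-α the level of *IRF8* was 2.90 times as high in granulocytes as in promyelocytes, the reverse of the order with vehicle.

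*IRF5*, which acts below Toll-like receptors in the induction of inflammatory cytokines, fell in both cell types. Promyelocytes held 119, 101 and 114 counts with vehicle (3.89, 3.71 and 3.93 CPM) and 52, 66 and 57 with TNF-α (1.96, 2.36 and 1.8 CPM). The log2 fold change was -0.90 (SE 0.181, edgeR adjusted p = 0.00152). Granulocytes held 166, 212 and 215 counts with vehicle (6.38, 7.01 and 7.21 CPM) and 32, 51 and 32 with TNF-α (1.45, 1.83 and 1.45 CPM). The groups were apart in both cell types, and by more in granulocytes.

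The fall of *IRF5* in granulocytes was -2.13 on the log2 scale (SE 0.167, edgeR adjusted p = 1.78e-13), 4.36-fold, the 69th lowest value of 16944 genes. The responses differed by -1.19 (SE 0.238, interaction, edgeR adjusted p = 4.37e-04). Vehicle levels of *IRF5* were apart between the cell types, while TNF-α levels (2.04 ± 0.289 CPM in promyelocytes, 1.57 ± 0.219 CPM in granulocytes, SD, n = 3) overlapped.

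*IRF2*, which occupies the same DNA sites as IRF1 and mostly represses them, rose in both cell types. Promyelocytes held 525, 434 and 445 counts with vehicle (17.1, 16.0 and 15.4 CPM) and 655, 647 and 786 with TNF-α (24.6, 23.1 and 24.8 CPM). The log2 fold change was 0.61 (SE 0.0800, edgeR adjusted p = 1.39e-05), a 1.52-fold rise. Granulocytes held 1004, 1147 and 1170 counts with vehicle (38.6, 37.9 and 39.2 CPM) and 1024, 1334 and 1012 with TNF-α (46.3, 47.8 and 45.7 CPM). Raw counts of the granulocyte groups overlapped, and the levels scaled to library totals did not.

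In granulocytes the log2 fold change of *IRF2* was 0.26 (SE 0.0577, edgeR adjusted p = 2.89e-04), a 1.20-fold rise. Here the larger response was that of promyelocytes, with a difference of -0.31 (SE 0.0922, interaction, edgeR adjusted p = 0.0148). This difference missed the threshold when the replicate number was added to the fit (edgeR adjusted p = 0.0506) and at a stricter threshold of 0.01.

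*IRF1*, the activator of the pair and a known target of NF-κB, did not pass the test in either cell type. Promyelocytes held 964, 761 and 871 counts with vehicle and 854, 801 and 1126 with TNF-α, at 29.8 ± 1.76 and 32.1 ± 3.43 CPM (SD, n = 3). The log2 fold change was 0.13, with a 95% confidence interval of -0.04 to 0.30 (edgeR adjusted p = 0.336). Granulocytes held 4253, 5105 and 4987 counts with vehicle and 3888, 4734 and 3538 with TNF-α, at 167 ± 2.70 and 168 ± 7.95 CPM.

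In granulocytes the log2 fold change of *IRF1* was 0.00 and its interval -0.10 to 0.10 (edgeR adjusted p = 0.987). That interval covers the spread between flasks on the TMM scale only. In TPM the granulocyte libraries stood at 68.9, 72.5 and 69.1 with vehicle and 60.0, 58.5 and 59.8 with TNF-α. These TPM values were lower after TNF-α without overlap and were not tested. TPM differs from CPM per kilobase by a factor shared by all genes of a library, so this shift is not particular to *IRF1*. In granulocytes the TPM values of *IRF3*, *IRF7* and *IRF2BP2* were lower without overlap too. The interval in promyelocytes is wider and reaches further above 0 than below it. The difference between the responses was -0.09 (SE 0.0928, interaction, edgeR adjusted p = 0.542), and -0.26 (edgeR adjusted p = 0.0116) with the GC and length trends removed.

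Because IRF1 and IRF2 compete for the same sites, the ratio of *IRF1* to *IRF2* transcript, in CPM per kilobase, was computed in each library. It was 0.734, 0.701 and 0.782 in vehicle-treated promyelocytes and 0.521, 0.495 and 0.572 after TNF-α. In granulocytes it was 1.69, 1.78 and 1.70 with vehicle and 1.52, 1.42 and 1.4 after TNF-α. The ratio was lower in all TNF-α libraries than in all vehicle libraries of the same cell type, and above 1 only in granulocytes. The position against 1 rests on the division by exon length (7799 bases for *IRF1*, 3116 for *IRF2*), since in CPM *IRF1* exceeded *IRF2* in promyelocytes too (29.8 against 16.2 with vehicle, 32.1 against 24.2 with TNF-α). The log2 difference was -0.48 in promyelocytes and -0.26 in granulocytes. The exact two-sided permutation test gave p = 0.1 for each, the smallest value that 3 against 3 libraries allow, so this test cannot reach 0.05.

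**Figure D4:**
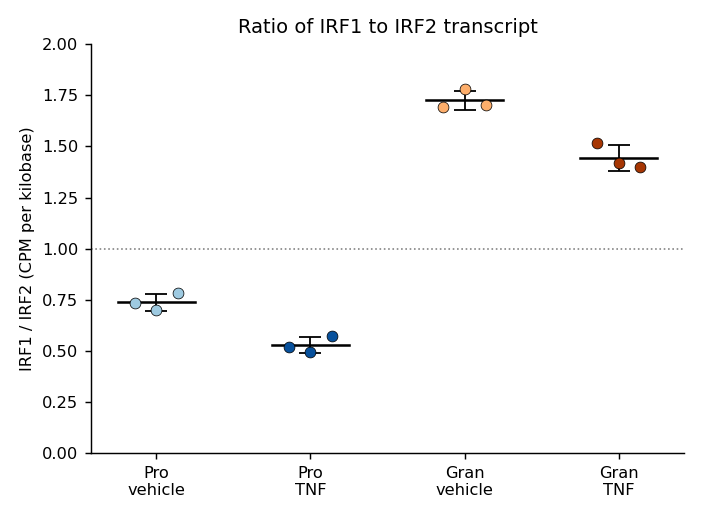
Ratio of *IRF1* to *IRF2* transcript (y axis, CPM per kilobase over CPM per kilobase, linear from 0) in each library of the 4 groups (x axis). Points are libraries, bars the mean and whiskers the SD of 3 libraries, and the dotted line marks equal CPM per kilobase. The position against this line rests on the exon lengths. All promyelocyte points lie below 1 and all granulocyte points above it, and TNF-α points lie below the vehicle points of the same cell type.

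*IRF2BP2* did not pass the test in promyelocytes (245 ± 6.81 CPM with vehicle, 261 ± 13.1 with TNF-α, log2 fold change 0.11, edgeR adjusted p = 0.210) or in granulocytes (298 ± 13.5 and 286 ± 17 CPM, -0.08, edgeR adjusted p = 0.237). The difference of -0.15 (edgeR adjusted p = 0.177) passed with DESeq2 (-0.21, adjusted p = 0.0345) and without a low-count filter (-0.23, edgeR adjusted p = 0.0220). The related corepressor genes gave a different picture. *IRF2BPL* was lower after TNF-α in promyelocytes (6.01 ± 0.769 against 3.96 ± 0.626 CPM, log2 fold change -0.57, edgeR adjusted p = 0.0143) and in granulocytes (5.17 ± 0.750 against 2.22 ± 0.164 CPM, -1.23, edgeR adjusted p = 1.42e-07). *IRF2BP1* was lower in promyelocytes (32.7 ± 3.73 against 23.9 ± 4.79 CPM, -0.42, edgeR adjusted p = 0.0117, with overlapping groups) and, by less, in granulocytes (-0.23, edgeR adjusted p = 0.0331), where the call was lost with DESeq2 (adjusted p = 0.132). Without 1 library the call of *IRF2BPL* in promyelocytes was lost for vehicle library 1 and TNF-α libraries 1 and 2 (edgeR adjusted p up to 0.0734). That of *IRF2BP1* was lost for vehicle library 2 and TNF-α library 2 of promyelocytes (up to 0.0700) and vehicle and TNF-α libraries 1 and 3 of granulocytes (up to 0.166).

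*IRF3*, which TBK1 and the kinase encoded by *IKBKE* activate to switch on *IFNB1*, stayed close to its vehicle level on the TMM scale. It averaged 43.8 ± 2.87 CPM with vehicle and 42.0 ± 3.02 with TNF-α in promyelocytes (SD, n = 3), with a log2 fold change of -0.03 and an interval of -0.18 to 0.11 (edgeR adjusted p = 0.792). In granulocytes it averaged 56.5 ± 0.941 and 55.1 ± 0.949 CPM, a log2 fold change of -0.05 with an interval of -0.16 to 0.06 (edgeR adjusted p = 0.477). With the GC and length trends removed the granulocyte value became -0.19 (edgeR adjusted p = 0.00116). In TPM the granulocyte libraries stood at 49.7, 49.0 and 48.0 with vehicle and 39.1, 39.5 and 41.5 with TNF-α. These TPM values did not overlap and were not tested, so the granulocyte result depends on the scale.

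*IRF7*, the interferon-inducible factor that amplifies type I interferon, held 57 to 70 counts in vehicle-treated and 62 to 103 in TNF-α treated promyelocytes. Its levels there, 2.29, 2.5 and 1.97 CPM against 2.33, 3.57 and 3.24 CPM, overlapped through the first TNF-α library. The log2 fold change of 0.47 had an interval of 0.04 to 0.89 and did not pass over all genes (edgeR adjusted p = 0.139), though it did with the GC and length trends removed (0.57, edgeR adjusted p = 0.0425). In granulocytes vehicle libraries averaged 10.6 ± 0.564 CPM and TNF-α libraries 11 ± 0.546 CPM, a log2 fold change of 0.03 (edgeR adjusted p = 0.795). Without the first TNF-α library of promyelocytes the difference between the responses passed (edgeR adjusted p = 0.0400), against 0.163 with it.

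*IRF9*, the DNA-binding subunit of the interferon-stimulated complex ISGF3, held 44 to 61 counts in vehicle-treated and 63 to 84 in TNF-α treated promyelocytes. The levels were 1.99, 1.62 and 1.97 CPM against 2.37, 2.36 and 2.65 CPM. They did not overlap, and the log2 fold change of 0.43 did not pass the test (edgeR adjusted p = 0.185). In granulocytes *IRF9* averaged 7.94 ± 1.1 CPM with vehicle and 8.15 ± 0.644 with TNF-α (0.03, edgeR adjusted p = 0.852). Of the 3794 exon bases of *IRF9*, 1838 (48.4%) are shared on the same strand with a readthrough gene, ENSG00000259529. Read pairs on shared bases were not counted for either gene, so the counts of *IRF9* come from part of its transcript.

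*IRF4*, a factor of lymphocytes and dendritic cells, lay near the limit of detection with 7 to 16 counts in every library. Its levels were between 0.229 and 0.571 CPM and overlapped between all 4 groups. The intervals of its log2 fold change, -0.58 to 1.32 in promyelocytes and -1.18 to 0.51 in granulocytes, are wide, and changes inside these bounds were not detectable at this depth.

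Genes around the IRFs were read from lists of the pathway, each count beside the shares of all genes given above (8.15% upwards and 6.65% downwards in promyelocytes, 24.4% and 24.8% in granulocytes) and each median beside those of all genes (-0.01 and -0.00). Interferon genes and their receptors stand upstream of IRF induction. None of 8 interferon genes had enough counts to be tested. *IFNB1*, the main target of IRF3, reached 1 count in a vehicle-treated and 7 counts in a TNF-α treated promyelocyte library, and it had 0 counts in all granulocyte libraries, which allows up to 3 counts in each. Of 8 receptor and JAK kinase genes tested, 5 rose and 0 fell in promyelocytes, and 4 rose and 2 fell in granulocytes, with median log2 fold changes of 0.22 and 0.13. *IFNGR2*, the signalling chain of the interferon-γ receptor, rose from 42.2 to 100 CPM in promyelocytes (log2 fold change 1.28, edgeR adjusted p = 2.30e-12) and from 74.2 to 320 CPM in granulocytes (2.09, edgeR adjusted p = 1.53e-29). *JAK2*, its kinase, rose in promyelocytes (29.6 to 55.8 CPM, 0.94, edgeR adjusted p = 4.15e-09) and stood at 114 and 121 CPM in granulocytes (0.08, edgeR adjusted p = 0.251). *TYK2*, a kinase of the type I interferon receptor, rose in both (0.79 and 0.71, edgeR adjusted p = 9.74e-09 and 1.71e-15).

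Among the sensors, adaptors and kinases that act on IRF3, IRF5 and IRF7, 11 of 20 genes tested rose and 1 fell in promyelocytes, and 13 of 21 rose and 6 fell in granulocytes. The medians were 0.43 and 0.32. *TICAM1*, the Toll-like receptor adaptor that leads to IRF3, rose from 1.36 to 4.86 CPM in promyelocytes (log2 fold change 1.87, edgeR adjusted p = 1.71e-06) and from 7.09 to 38.9 CPM in granulocytes (2.43, edgeR adjusted p = 4.78e-22). *IKBKE*, whose product phosphorylates IRF3 and IRF7, rose by 1.14 and 1.83 (edgeR adjusted p = 1.37e-11 and 9.43e-28). *TRAF3*, a ubiquitin ligase of the same route, rose by 0.77 and 2.33 (edgeR adjusted p = 4.27e-09 and 1.35e-29). *STING1*, the adaptor of cytosolic DNA sensing, was the only gene of this list to fall in promyelocytes (-0.32, edgeR adjusted p = 0.0115) and also fell in granulocytes (-1.21, edgeR adjusted p = 9.22e-16), and it was singled out after its values were seen.

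Of the DNA-binding partners of IRFs, 5 of 12 tested rose and 1 fell in promyelocytes (median 0.11), and 8 of 13 rose and 3 fell in granulocytes (median 0.19). *NFKB1* rose by 1.38 and 2.02 on the log2 scale (edgeR adjusted p = 2.77e-12 and 1.85e-28) and *JUNB*, an AP-1 subunit, by 0.98 and 1.95 (edgeR adjusted p = 3.97e-07 and 2.71e-24). *BATF3*, an AP-1 factor that acts with IRF8 in dendritic cells, rose in granulocytes from 0.512 to 1.98 CPM (1.94, edgeR adjusted p = 1.77e-06). In promyelocytes *BATF3* stood at 7.48 and 9.33 CPM with overlapping groups (0.34, edgeR adjusted p = 0.101, or 0.0259 without TNF-α library 1).

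IRF targets were described by list. Of 22 IRF1 target genes tested, 12 rose and 1 fell in promyelocytes (median 0.37) and 14 rose and 4 fell in granulocytes (median 0.31), while *IRF1* itself did not pass in either. The genes of this list that changed most were *VCAM1*, *IL12B* and *ICAM1*, adhesion and cytokine genes that are also NF-κB targets, and each rose in both cell types (highest edgeR adjusted p = 2.45e-13). *IL12B* rose by 6.05 and 8.16 on the log2 scale and *ICAM1* by 6.22 and 2.41, in promyelocytes and granulocytes. *VCAM1* had at most 2 counts in any vehicle-treated and 507 to 593 in TNF-α treated promyelocyte libraries, and it rose by 8.91 in granulocytes. Of 10 IRF8 target genes tested in promyelocytes 3 rose and 2 fell, and of 9 tested in granulocytes 3 rose and 2 fell (medians 0.06 and 0.03). *BCL6*, a transcriptional repressor, fell in promyelocytes (4.45 to 2.0 CPM, -1.13, edgeR adjusted p = 3.11e-04) and rose in granulocytes (2.59 to 7.12 CPM, 1.44, edgeR adjusted p = 3.49e-10). *CIITA*, the activator of MHC class II genes, rose in promyelocytes from 1 count in each vehicle library to between 17 and 27 counts with TNF-α (edgeR adjusted p = 2.40e-05) and had too few counts in granulocytes.

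The ISGF3 targets, the antiviral genes that interferon induces through IRF9, behaved otherwise. In promyelocytes 2 of 20 tested rose and 0 fell (median 0.12), and in granulocytes 3 of 23 rose and 9 fell (median -0.25). For the difference 1 of 23 was higher in granulocytes and 9 were lower (median -0.38, beside 0.03 for all genes), where 14.1% and 9.88% of all genes were. *IFIT2* was lower after TNF-α in granulocytes (10.8 to 6.41 CPM, -0.78, edgeR adjusted p = 1.43e-06) and stood at 9.57 and 10.5 CPM in promyelocytes (0.15, edgeR adjusted p = 0.371). *OAS3*, a sensor of double-stranded RNA, rose in promyelocytes (18.5 to 31.1 CPM, 0.78, edgeR adjusted p = 2.20e-07) and in granulocytes (145 to 176 CPM, 0.26, edgeR adjusted p = 5.79e-05). *ISG20*, an exonuclease, rose in granulocytes (1.17 to 2.08 CPM, 0.83, edgeR adjusted p = 0.00556).

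Of 5 genes tied to IRF4 in lymphocytes, 3 rose and 1 fell in each cell type (medians 0.20 and 0.71). *CD44* rose by 0.63 and 2.71 on the log2 scale (edgeR adjusted p = 3.19e-07 and 3.84e-32) and *PRDM1* by 1.99 and 0.71 (edgeR adjusted p = 6.70e-11 and 2.83e-14). *MYC* fell in promyelocytes from 1879 to 797 CPM (-1.21, edgeR adjusted p = 1.37e-11) and stood at 78.4 and 75.7 CPM in granulocytes (-0.07, edgeR adjusted p = 0.341). Of 12 regulators of IRF protein stability or activity, 3 rose and 6 fell in promyelocytes and 3 rose and 5 fell in granulocytes (medians -0.18 and -0.08). *SOCS1*, an inhibitor of JAK kinases, rose in promyelocytes (0.768 to 5.35 CPM, 2.83, edgeR adjusted p = 1.92e-08) and stood at 2.81 and 2.76 CPM in granulocytes (-0.04, edgeR adjusted p = 0.888). *PELI1*, a ubiquitin ligase of Toll-like receptor signalling, rose by 1.62 and 1.18 (edgeR adjusted p = 2.30e-12 and 8.99e-17).

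**Figure D5:**
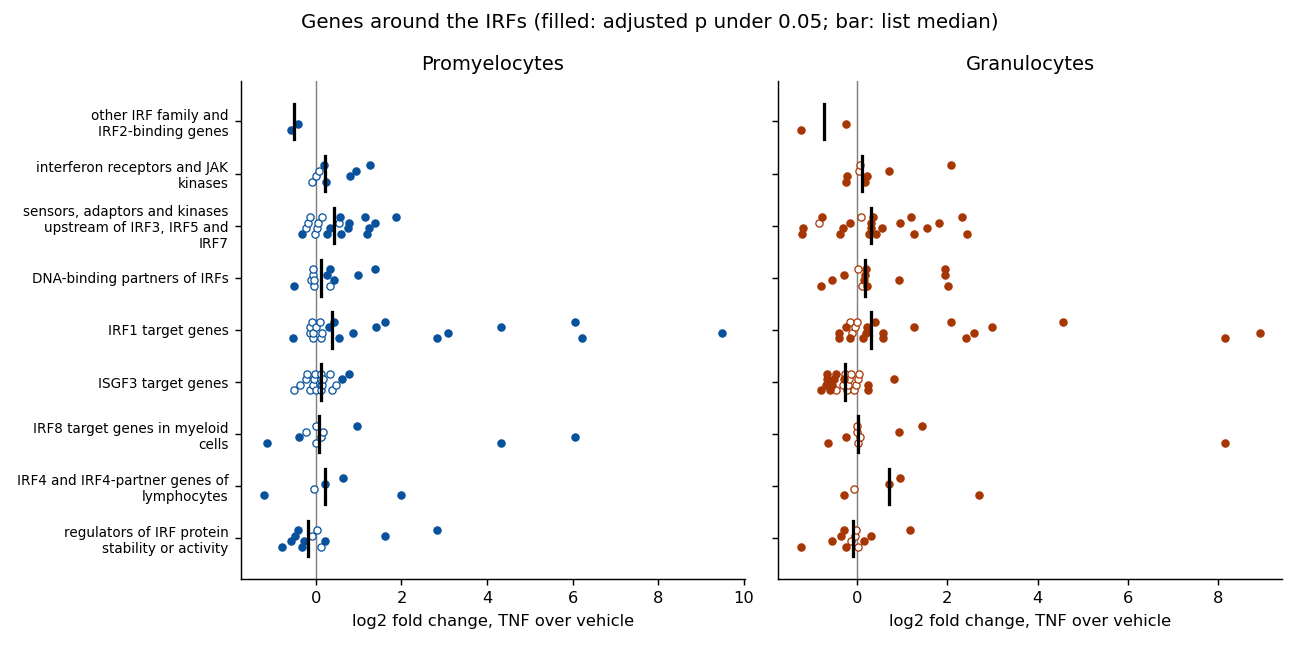
Log2 fold change of TNF-α over vehicle (x axis) of every gene tested in 9 lists around the IRFs (y axis), in promyelocytes and granulocytes. Each point is a gene, filled points passed an adjusted p of 0.05, and bars mark list medians. The ISGF3 targets have a median of 0.12 in promyelocytes and -0.25 in granulocytes, and the far right points are *VCAM1* and *IL12B* in the IRF1 list and *IL12B* in the IRF8 list.

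Genes beside the IRFs were read for transcription around each locus. *IRF1-AS1*, which lies on the opposite strand of *IRF1* (chr5:132481609-132490798, minus strand, GENCODE coordinates of the count table on hg38) and shares 1716 exon bases with it, fell in both cell types. It held 102, 89 and 100 counts in vehicle-treated and 50, 55 and 48 in TNF-α treated promyelocytes, with a log2 fold change of -0.89 (SE 0.192, edgeR adjusted p = 0.00275). In granulocytes it held 457, 511 and 474 counts against 275, 361 and 275 (-0.43, SE 0.0843, edgeR adjusted p = 5.86e-05). The groups were apart in both cell types, while *IRF1* itself did not pass in either. Counting used the strand, so reads of the pair were assigned by orientation.

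*IRF2-DT*, 222 bases from *IRF2* (chr4:184387713-184474580, minus strand) and transcribed away from it, did not pass in promyelocytes (3.47 and 3.10 CPM, edgeR adjusted p = 0.677) or granulocytes (4.65 and 5.03 CPM, edgeR adjusted p = 0.574). ENSG00000270426, inside *IRF2* on the same strand, stood at 0.775 and 1.20 CPM in promyelocytes and 2.08 and 2.93 CPM in granulocytes and did not pass in either (edgeR adjusted p = 0.198 and 0.0582). Beside *IRF7* (chr11:612553-615999, minus strand), *PHRF1* rose in granulocytes (53.0 to 65.1 CPM, 0.28, edgeR adjusted p = 1.43e-04), and beside *IRF3* (chr19:49659569-49665875, minus strand), *SCAF1* rose in granulocytes (71.2 to 85.6 CPM, 0.25, edgeR adjusted p = 6.41e-04). Both calls were lost with the GC and length trends removed (0.10 and 0.05). *RNF31*, 392 bases from *IRF9* (chr14:24161053-24166565, plus strand), passed in granulocytes (0.17, edgeR adjusted p = 0.0298) with overlapping groups, and not without vehicle or TNF-α library 1 or 2 (up to 0.221). *BCL2L12* beside *IRF3*, *TNPO3* and ENSG00000275106 beside *IRF5* (chr7:128937612-128950035, plus strand) and ENSG00000259529 at *IRF9* did not pass in either cell type. No gene within 5000 bases of *IRF4* (chr6:391739-411447, plus strand), *IRF8* (chr16:85898803-85922609, plus strand) or *IRF2BP2* (chr1:234604269-234609525, minus strand) reached 1 CPM.

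The genes whose levels ran most like those of *IRF1* and *IRF8* over the 12 libraries were picked by Pearson correlation of log2 CPM among 13801 genes, as a description. The 12 points share 4 groups, so these values reflect mainly the differences between groups. For *IRF1* they were *DNMT3A* (r = 0.999), *KLHL36* (0.999), *PLTP* (0.998), *MAPKAPK2* (0.998) and ENSG00000255599 (0.998). *DNMT3A*, a DNA methyltransferase, averaged 19.0 and 21.3 CPM in promyelocytes and 124 and 133 CPM in granulocytes with vehicle and TNF-α. For *IRF8* they were *ANP32A* (r = 0.993), *CDC42EP2* (0.991), *ELOA* (0.988), *ME1* (0.988) and *CELF1* (0.986). *CDC42EP2*, an effector of the GTPase CDC42, went from 0.507 to 6.43 CPM in granulocytes and from 1.68 to 2.90 CPM in promyelocytes, and *ME1*, the cytosolic malic enzyme, from 11.9 to 91.7 and from 33.4 to 39.4 CPM. Each has its lowest group mean in vehicle-treated granulocytes and its highest in TNF-α treated granulocytes, as *IRF8* has.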

How the data were processed

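RNA of 12 HL-60/S4 libraries, 3 in each of 4 groups assigned from the sample labels, was sequenced as paired ends after ribosomal RNA depletion. The authors aligned reads to hg38 with STAR 2.5.3a and counted read pairs per gene with featureCounts 1.5.2 on GENCODE v27 annotation, and they deposited these counts without normalization. Per the file headers, counting was stranded and kept primary, properly paired alignments only. Read pairs on exons of more than 1 gene of a strand were left out, which lowers *IRF9*. Symbols were matched to 57532 of 58288 identifiers.

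Promyelocyte and granulocyte libraries were fitted apart in edgeR 4.0.16 (TMM, filterByExpr with minimum count 10 and minimum total 15, quasi-likelihood test, Benjamini-Hochberg adjustment over all genes tested, threshold 0.05), and the difference of responses as an interaction in a fit of all 12 libraries. The study itself used DESeq2, which is an alternative here (1.42.0). Standard errors were derived from the fold change (log2) and its F value. Levels are CPM on a TMM scale of all 12 libraries, divided by the exon length in the table where genes are compared. The *IRF1* to *IRF2* ratio was tested with an exact permutation test. Library totals of 22829189 to 31895061 set the precision. The fits were also run on simulated counts, and no outcome of that run is given here.

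The genes, the lists and the rules for named genes were chosen with earlier results of these data known. The rules named the 9 genes, the 3 called genes of each list with the largest absolute log2 fold change in either cell type, 5 genes most correlated with *IRF1* and with the gene of the largest difference, and genes within 5000 bases at 1 CPM or more. Alternatives were DESeq2's size factors, no low-count filter, DESeq2, a block for replicate number and 1 joint fit of the 12 libraries. Others were a threshold of 0.01, removal of GC and length trends, and leaving out each library. TPM was also computed, without a test. It cannot change the order of genes within a library, so it is no check of that order. Same-numbered libraries of a cell type did not deviate together (correlations from -0.15 to -0.01), so the numbers were not treated as pairs. Replicates differed by more than sampling noise. A few genes of the lists are not reported here.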

Additional observations from a re-analysis of the deposited data

Results flagged for a closer look

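Results were marked here when the TNF-α response differed between granulocytes and promyelocytes in the interaction test (edgeR adjusted p under 0.05). Differences are granulocytes minus promyelocytes on the log2 scale. Of the 9 genes, *IRF8* responded more strongly in granulocytes (4.19, edgeR adjusted p = 4.27e-11), *IRF5* fell further there (-1.19, edgeR adjusted p = 4.37e-04) and *IRF2* rose less there (-0.31, edgeR adjusted p = 0.0148). The antisense gene *IRF1-AS1* fell less in granulocytes (0.50, edgeR adjusted p = 0.0341), and among neighbours *SCAF1* (0.35) and *PHRF1* (0.46) differed as well. The difference for *SCAF1* became -0.016 with the GC and length trends removed, and it passed in 9 of 12 fits without 1 library (edgeR adjusted p up to 0.0796, lost without vehicle library 2 of promyelocytes and vehicle library 1 or TNF-α library 1 of granulocytes).

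Upstream of the IRFs, the rise was larger in granulocytes for *IFNGR2* (0.86), *TRAF3* (1.60) and *IKBKE* (0.73), and smaller for *JAK2* (-0.83). Among partners it was larger for *NFKB1* (0.67), *JUNB* (1.01) and *BATF3* (1.65). Among listed targets and regulators the rise was larger in granulocytes for *IL12B* (2.15) and *CD44* (2.12), and smaller for *ICAM1* (-3.78), *OAS3* (-0.48), *PRDM1* (-1.25), *SOCS1* (-2.83) and *PELI1* (-0.41). Larger and smaller refer to log2 fold changes and not to levels. *ICAM1* went from 1.62 to 119 CPM in promyelocytes and from 140 to 751 CPM in granulocytes. *BCL6* fell in promyelocytes and rose in granulocytes (2.61). *MYC* fell in promyelocytes and did not pass in granulocytes (1.18), and *IFIT2* fell in granulocytes and did not pass in promyelocytes (-0.89). Of the TNF-α response genes, *CXCL8* (1.36), *TNF* (0.63), *TNFAIP3* (1.49), *BIRC3* (2.77) and *NFKBIA* (1.63) responded more in granulocytes. The highest adjusted p among these was 0.0341. Cell type and experiment cannot be told apart in any of these differences, and no group held enough libraries for a check of single outliers.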

How the results depend on the processing

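The calls of *IRF2*, *IRF5* and *IRF8* within each cell type held under every alternative run. None of these alternatives tested TPM, in which the granulocyte groups of *IRF2* overlapped. With the GC and length trends removed, 6 of the 9 genes passed for the difference of responses in place of 3. DESeq2 and no low-count filter each added *IRF2BP2*, and leaving out TNF-α library 1 of promyelocytes added *IRF7*. With the replicate block, the difference for *IRF2* was -0.31 (edgeR adjusted p = 0.0506), which left 2 of 9, as did a threshold of 0.01, and the replicate block changed no other call of the 9 genes. Same-numbered vehicle and TNF-α libraries correlated from -0.15 to -0.01 (6 of 6 below 0), which does not pair them. Over all genes the replicate block called 1833 in place of 2405 in promyelocytes, 7721 in place of 8344 in granulocytes and 3349 in place of 4351 for the difference.

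Of the values that changed sign, the difference for *SCAF1* (0.35, edgeR adjusted p = 0.0173) had passed and the others had not. With the trends removed, *IRF3* in promyelocytes became 0.011, *IRF1* in granulocytes -0.077, *IRF7* there -0.15 and *IRF9* there -0.045. *SCAF1* in promyelocytes became 0.079 and ENSG00000275106 -0.0016, and the differences became -0.19 for *IRF3*, -0.12 for *IRF2BP1*, -0.016 for *SCAF1* and -0.13 for *RNF31*. Without a low-count filter *IRF1* in granulocytes became -0.0053. The difference for *IRF3* was -0.027 with DESeq2's size factors, -0.060 without a filter and -0.035 with DESeq2. The cause was not tested.

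Leaving out 1 library gave ranges across 0 for values that did not pass. In promyelocytes these were -0.084 to 0.014 for *IRF3* and -0.062 to 0.30 for ENSG00000275106. In granulocytes they were -0.024 to 0.041 for *IRF1*, -0.0080 to 0.078 for *IRF7*, -0.075 to 0.11 for *IRF9*, -0.12 to 0.057 for *SOCS1*, -0.018 to 0.34 for ENSG00000275106 and -0.015 to 0.035 for *TNPO3*. For the difference they were -0.026 to 0.076 for *IRF3*, -0.089 to 0.0095 for *TYK2*, -3.14 to 0.011 for *VCAM1*, -0.39 to 0.050 for ENSG00000270426 and -0.10 to 0.27 for ENSG00000275106. Calls of other named genes were lost in 23 fits without 1 library and gained in 13. The difference for *IRF1-AS1* passed in 6 of 12 such fits (edgeR adjusted p up to 0.129), and that for *IL12B* in 11 of 12 (0.0710 without vehicle library 1 of promyelocytes). The change of the *IRF1* to *IRF2* ratio ranged from -0.54 to -0.43 in promyelocytes and from -0.29 to -0.23 in granulocytes.

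Depth limits *IRF4* and the vehicle level of *IRF8* in granulocytes, which rest on 5 to 16 counts a library.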

Other observations

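The following listed genes were chosen after their values were seen. Genes of MHC class I presentation in the IRF1 list did not all move together. *HLA-B* and *TAP1* rose in both cell types, *HLA-C*, *TAP2* and *B2M* passed, upwards, in granulocytes and not in promyelocytes, *HLA-E* and *PSMB8* passed, downwards, in granulocytes and not in promyelocytes, *PSMB9* passed in neither, and *NLRC5* fell in both (edgeR). Other listed genes rose in both cell types. *GBP2*, a guanylate-binding protein, rose by 1.4 in promyelocytes and 3.0 in granulocytes on the log2 scale (edgeR adjusted p = 4.34e-08 and 3.53e-30). *TAP1*, a peptide transporter of the MHC class I pathway, rose by 0.88 and 1.26, *TNFSF10*, which encodes the death ligand TRAIL, by 1.61 and 2.08, and *CD274*, which encodes PD-L1, by 3.08 and 4.56 (highest edgeR adjusted p = 5.61e-04). *NLRC5*, the activator of MHC class I genes, fell by 0.54 and 0.39 (edgeR adjusted p = 6.02e-06 and 5.78e-08).

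Among cytosolic sensors, *IFIH1* rose by 1.39 and 1.26 and *CGAS* by 0.75 and 0.96, in promyelocytes and granulocytes (highest edgeR adjusted p = 3.22e-08). Of the 4 Toll-like receptor genes tested in granulocytes, 1 rose, 2 fell and 1 did not pass. *TLR2* rose by 1.20 and 1.56, whereas *TLR4* gave 0.05 in promyelocytes (edgeR adjusted p = 0.655) and fell by 0.76 in granulocytes (edgeR adjusted p = 3.60e-15). *TLR8* gave 0.55 in promyelocytes (edgeR adjusted p = 0.603) and fell by 1.18 in granulocytes (edgeR adjusted p = 0.0166), and *TLR3* gave -0.83 in granulocytes (edgeR adjusted p = 0.0727). No explanation of these values was tested.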
